A study of Mus musculus with 4 samples.

Results

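Of 16193 NR1D1 peaks listed for smooth muscle cells of the mouse aorta, 565 had their summit at an end of a noncoding RNA gene and away from every end of a protein-coding gene. They comprised 268 of 7377 peaks from cells given phosphate-buffered saline (PBS) and 297 of 8816 peaks from cells given vasostatin-2. Position alone chose them: the summit lay within 1 kb of either end of a long noncoding RNA (lncRNA), microRNA (miRNA), small nuclear RNA (snRNA), small nucleolar RNA (snoRNA) or transfer RNA (tRNA) gene, and no end of a protein-coding gene lay within 1 kb. The gene models were those RefSeq gives for GRCm38.p6 (mm10), where the 5 classes hold 16707 genes and the protein-coding class 21883. Each peak was assigned to the class of its nearest noncoding gene. In the last 100 bp inside the 1 kb limit lay 17 PBS and 27 vasostatin-2 peaks, with a median fold enrichment of 5.41 and 5.20, and in the first 100 bp outside it 20 and 21 peaks, with 5.45 and 5.75. Peaks close to both kinds of gene end, 367 and 252 in the 2 lists, were left out by the rule.

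The cells were primary vascular smooth muscle cells cultured from the aorta of wild-type mice. One group of cells received vasostatin-2, a peptide cut from chromogranin A, for 24 h, and the other received PBS for the same time. NR1D1 was mapped by CUT&Tag, which uses an antibody to guide a transposase to chromatin and sequences the DNA it cuts there, in 1 library per treatment. The matching IgG libraries were not analysed here. The labels put every library in 1 batch and give neither the dose of vasostatin-2 nor the age or number of the mice. Replicate error could not be estimated from single libraries, so no effect of treatment was tested, and the intervals in parentheses are 95% Wilson intervals of shares that cover counting error only. In cultured cells taken as a whole, fewer cells with NR1D1 at a site and less NR1D1 per cell cannot be told apart. Peak lists hold no expression values. Acta2, Myh11, Tagln and Cnn1, which define contractile smooth muscle, had 0 summits within 1 kb of an end in either library, so the labelled cell type could not be checked from them.

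NR1D1 (REV-ERB alpha) is a nuclear receptor of the circadian clock. It binds the sequence AGGTCA, preferably after an AT-rich stretch, and represses transcription by recruiting the corepressor NCoR with histone deacetylase activity. Noncoding RNA genes differ in how they are read. Most lncRNAs, and the host transcripts from which miRNAs and most snoRNAs are cut, are made by RNA polymerase II, as are most spliceosomal snRNAs. The tRNAs are made by RNA polymerase III. In vascular smooth muscle, miRNAs such as miR-143, miR-145, miR-21 and miR-22 and the lncRNA Carmn are known regulators of the contractile state.

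The sequences below carry the results that follow. All come from RefSeq tables for GRCm38.p6, which matched 20 of 20 miRNA genes near a peak and gave 36 mature miRNAs. The mature miRNAs are written 5′ to 3′ with the seed, bases 2 to 8, in capitals. The first pair comes from Mir22 (miR-22-5p at chr11:75463734-75463755 and miR-22-3p at chr11:75463772-75463793, plus strand). Both lists held a peak with its summit 730 (PBS) and 704 bp (vasostatin-2) from Mir22, and another near the start of its host transcript.
mmu-miR-22-5p: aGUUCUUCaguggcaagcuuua
mmu-miR-22-3p: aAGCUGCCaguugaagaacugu
The next 3 belong to miRNA genes with a peak in the PBS list alone. The mature miR-132-3p (chr11:75173723-75173744) and miR-212-3p (chr11:75173443-75173464) come from neighbouring genes on the plus strand and shared the seed AACAGUC, the 1 seed held by more than 1 of the 36 mature miRNAs. The hypoxia-induced miR-210-3p comes from the minus strand (chr7:141221407-141221428).
mmu-miR-132-3p: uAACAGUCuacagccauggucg
mmu-miR-212-3p: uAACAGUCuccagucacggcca
mmu-miR-210-3p: cUGUGCGUgugacagcggcuga
Of the miRNAs with peaks in both lists, miR-199a-5p (chr9:21496537-21496559) and miR-199a-3p (chr9:21496498-21496519) come from the minus strand, where Mir199a-1 lies inside the dynamin gene Dnm2.
mmu-miR-199a-5p: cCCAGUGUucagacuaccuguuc
mmu-miR-199a-3p: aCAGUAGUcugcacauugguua
The promoters are 300 bases each, from 250 before to 50 after the annotated start, in the direction of transcription. The 3 below belong to lncRNA genes with many more fragments in the PBS than in the vasostatin-2 library, and CpG pairs are in capitals. They are Mir22hg (chr11:75461289-75461588, plus strand), 2700012I20Rik (chr9:57076000-57076299, minus strand) and 1700113A16Rik (chr3:88177736-88178035, minus strand), and they hold 12, 16 and 28 CpG pairs.
Mir22hg: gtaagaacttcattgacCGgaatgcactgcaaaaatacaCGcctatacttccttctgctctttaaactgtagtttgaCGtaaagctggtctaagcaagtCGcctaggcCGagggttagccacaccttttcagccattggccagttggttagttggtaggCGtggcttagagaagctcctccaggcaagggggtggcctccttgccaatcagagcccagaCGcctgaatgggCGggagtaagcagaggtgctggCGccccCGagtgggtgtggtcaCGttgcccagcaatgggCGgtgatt
2700012I20Rik: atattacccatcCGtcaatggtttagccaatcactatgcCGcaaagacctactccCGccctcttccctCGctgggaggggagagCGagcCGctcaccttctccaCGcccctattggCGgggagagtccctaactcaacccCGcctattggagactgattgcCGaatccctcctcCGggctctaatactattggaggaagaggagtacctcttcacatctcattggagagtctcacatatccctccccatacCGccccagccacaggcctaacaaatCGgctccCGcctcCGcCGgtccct
1700113A16Rik: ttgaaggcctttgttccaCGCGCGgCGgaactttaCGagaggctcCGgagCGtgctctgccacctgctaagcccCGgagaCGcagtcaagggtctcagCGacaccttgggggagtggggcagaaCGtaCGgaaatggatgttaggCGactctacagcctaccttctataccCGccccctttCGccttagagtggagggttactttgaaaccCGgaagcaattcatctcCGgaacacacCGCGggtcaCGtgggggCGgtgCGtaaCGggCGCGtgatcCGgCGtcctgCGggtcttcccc
In the last 2 promoters, Gm40237 (chr4:118547156-118547455, plus strand) and 1700096K18Rik (chr5:25529768-25530067, plus strand), the NR1D1 sequence AGGTCA is in capitals. They are shown because Gm40237 had the vasostatin-2 peak with the most fragments at a noncoding end and 1700096K18Rik has AGGTCA in a promoter that its peaks covered.
Gm40237: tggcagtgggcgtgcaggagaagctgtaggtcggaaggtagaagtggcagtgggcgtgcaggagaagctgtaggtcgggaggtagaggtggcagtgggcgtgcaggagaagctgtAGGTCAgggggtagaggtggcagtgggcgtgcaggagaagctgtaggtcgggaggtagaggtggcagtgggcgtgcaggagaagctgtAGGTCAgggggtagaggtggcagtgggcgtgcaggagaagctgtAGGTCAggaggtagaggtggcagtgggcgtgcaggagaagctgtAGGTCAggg
1700096K18Rik: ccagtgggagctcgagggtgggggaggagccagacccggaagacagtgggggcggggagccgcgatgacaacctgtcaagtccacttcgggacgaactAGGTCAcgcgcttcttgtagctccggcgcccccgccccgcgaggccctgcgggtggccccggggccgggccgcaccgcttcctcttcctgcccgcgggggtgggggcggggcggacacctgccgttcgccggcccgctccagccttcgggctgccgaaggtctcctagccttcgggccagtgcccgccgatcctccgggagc

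Noncoding gene ends with no protein-coding end within 1 kb held a similar part of both lists, where protein-coding gene ends did not. The former took 3.63% (3.23 to 4.08) of the PBS peaks and 3.37% (3.01 to 3.77) of the vasostatin-2 peaks. Protein-coding ends took 35.9% (34.8 to 37.0) and 21.03% (20.2 to 21.9). Peaks close to both kinds of end, counted here with the protein-coding ends, were 4.97% of the PBS and 2.86% of the vasostatin-2 peaks. The similarity therefore holds for noncoding ends under this rule and not for all noncoding ends. Among peaks found in 1 list, noncoding ends took 3.28% (2.81 to 3.83) of PBS-only and 3.06% (2.66 to 3.52) of vasostatin-2-only peaks, against 31.0% (29.7 to 32.3) and 10.9% (10.1 to 11.7) for protein-coding ends. For noncoding ends these intervals overlap, and for protein-coding ends they do not. Few noncoding genes had a peak: 660 of 16707 noncoding genes (3.95%) had any PBS summit within 1 kb of an end and 568 (3.40%) any vasostatin-2 summit, and 283 and 314 had one that met the rule.

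**Figure D1:**
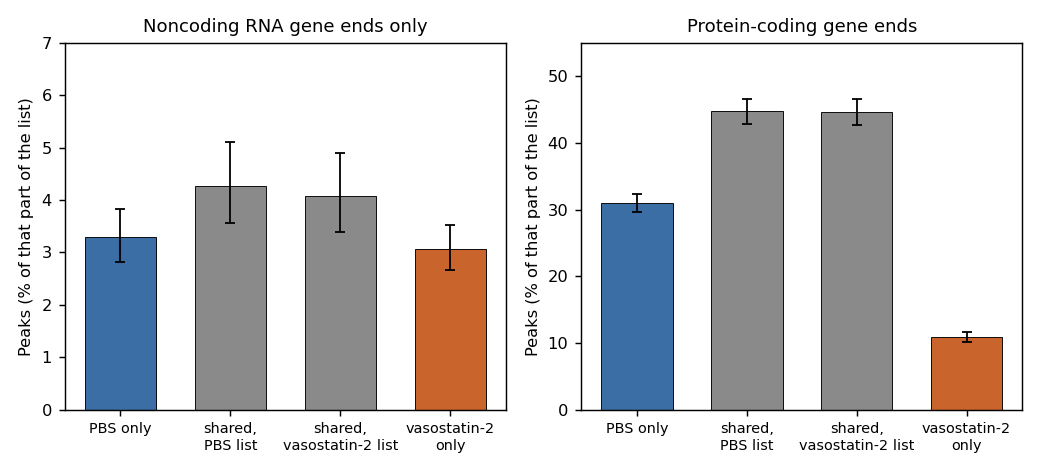
Share of each part of the 2 peak lists with the summit at a noncoding RNA gene end only (left) and at a protein-coding gene end (right), in percent, with 95% Wilson intervals as error bars and a different scale in each panel. PBS-only and vasostatin-2-only peaks stand at 3.28% and 3.06% on the left and at 31.0% and 10.9% on the right.

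The lncRNA genes supplied most of these peaks, and no tRNA peak was found at the same place in both lists. With PBS, 226 of 268 peaks (84.3%) were assigned to lncRNA genes, 18 to snRNA, 13 to miRNA, 6 to snoRNA and 5 to tRNA genes. With vasostatin-2 these were 258 of 297 (86.9%), 15, 14, 6 and 4. Overlap with the other list, by 1 bp or more, was found for 112 of the PBS peaks (41.8%, 36.0 to 47.8), against 35.6% of all PBS peaks. It was found for 108 of the vasostatin-2 peaks (36.4%, 31.1 to 42.0), against 30.05% of that whole list. By class the overlapping PBS peaks numbered 90 of 226 at lncRNA, 10 of 13 at miRNA, 10 of 18 at snRNA, 2 of 6 at snoRNA and 0 of 5 at tRNA genes. The vasostatin-2 list gave 86 of 258, 9 of 14, 10 of 15, 3 of 6 and 0 of 4 in the same order. The miRNA and snRNA peaks also had more fragments, with medians of 19 and 12.5 in the PBS list against 8.5 at lncRNA genes.

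**Figure D2:**
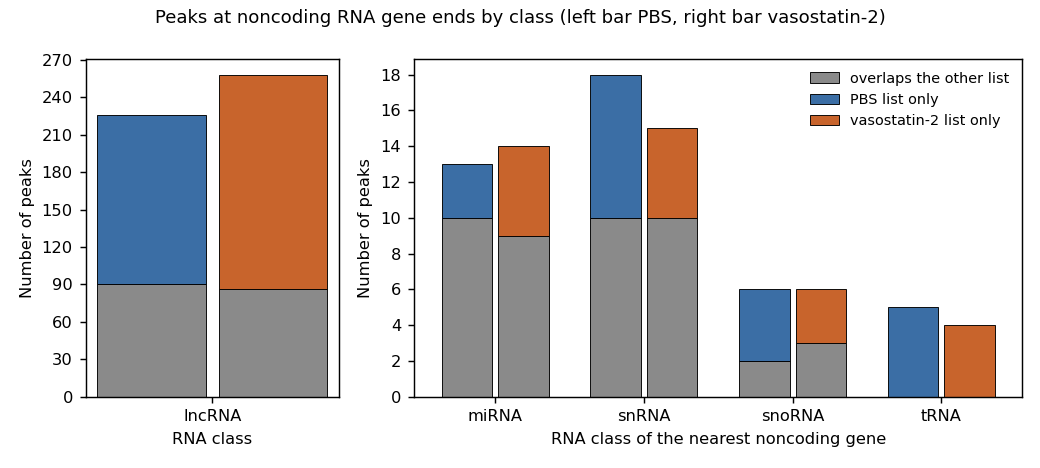
Number of peaks at noncoding RNA gene ends by the class of the nearest gene, with lncRNA on its own scale; in each class the left bar is the PBS list and the right bar the vasostatin-2 list, and grey marks peaks that overlap the other list. At lncRNA genes 90 of 226 PBS peaks and 86 of 258 vasostatin-2 peaks are grey, and at tRNA genes none is.

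Most peaks rested on few fragments, and overlap between the lists followed that number. Summits held a median of 9 fragments with PBS (range 4 to 90) and of 8 with vasostatin-2 (range 4 to 74). Overlapping peaks had medians of 12.5 and 12 fragments, and peaks of 1 list 7 and 6. Of PBS peaks with 4 to 5 fragments 8.33% (3.29 to 19.6) had a counterpart, and of those with 21 or more 25 of 25 did. For vasostatin-2 peaks these numbers were 6.90% (2.71 to 16.4) and 11 of 11. With so few fragments, a peak listed for 1 library cannot be taken as absent from the other. Among PBS peaks with 6 to 8 fragments the intervals of the 3 locations overlapped: 25.3% (17.03 to 35.9) of peaks at noncoding ends, 21.4% (18.7 to 24.4) at protein-coding ends and 24.0% (21.9 to 26.1) elsewhere had a counterpart. Among vasostatin-2 peaks with 6 to 8 fragments those of noncoding and protein-coding ends did not: the shares were 21.2% (14.7 to 29.7) at noncoding ends, 53.3% (49.7 to 56.9) at protein-coding ends and 14.2% (12.9 to 15.6) elsewhere. With 9 to 12 fragments the vasostatin-2 shares were in the same order, 47.8% (36.5 to 59.4), 76.2% (72.4 to 79.7) and 36.1% (33.5 to 38.7).

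**Figure D3:**
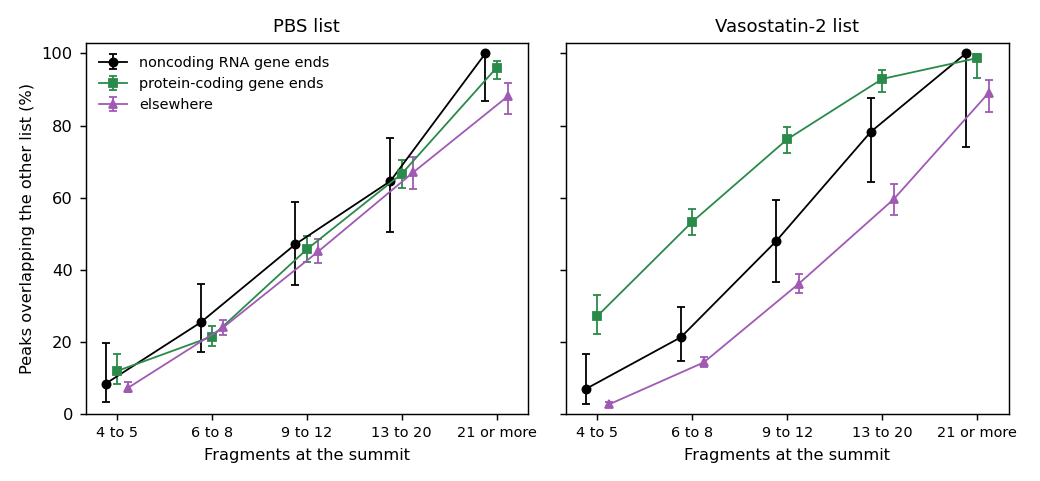
Percentage of peaks that overlap the other list by at least 1 bp, by the number of fragments at the summit, for peaks at noncoding RNA gene ends, at protein-coding gene ends and elsewhere, with 95% Wilson intervals. For 4 to 20 fragments the 3 lines lie close together on the left, and on the right (vasostatin-2) the noncoding ends run between the other two, at 21.2% for 6 to 8 fragments against 53.3% and 14.2%. With 21 or more, all 11 vasostatin-2 peaks at noncoding ends overlap.

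At sites found in both lists the vasostatin-2 library held fewer fragments for its depth. The lists gave 114 overlapping pairs with at least 1 such peak. In 104 of them both summits met the rule, and the median distance between the summits was 91 bp. After division of vasostatin-2 fragments by 1.32, the depth of that library relative to PBS, 42 pairs had at least 30 fragments together and were compared on the log2 scale (vasostatin-2 over PBS). Their median log2 ratio was -0.97 (quartiles -1.21 and -0.49). In 17 of the 42 (40.5%) the ratio was below -1, where 41.3% of all 710 pairs of that size were, and in 4 (9.52%) it was above 0, where 11.1% of all were. Protein-coding ends had a median of -1.06 over 351 pairs and other sites -0.55 over 317. By class the median was -0.91 over 29 lncRNA pairs, -0.98 over 8 miRNA pairs and -1.05 over 5 snRNA pairs. These are differences between 2 libraries, they rest on the inferred depth, and the spread is that between sites.

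**Figure D4:**
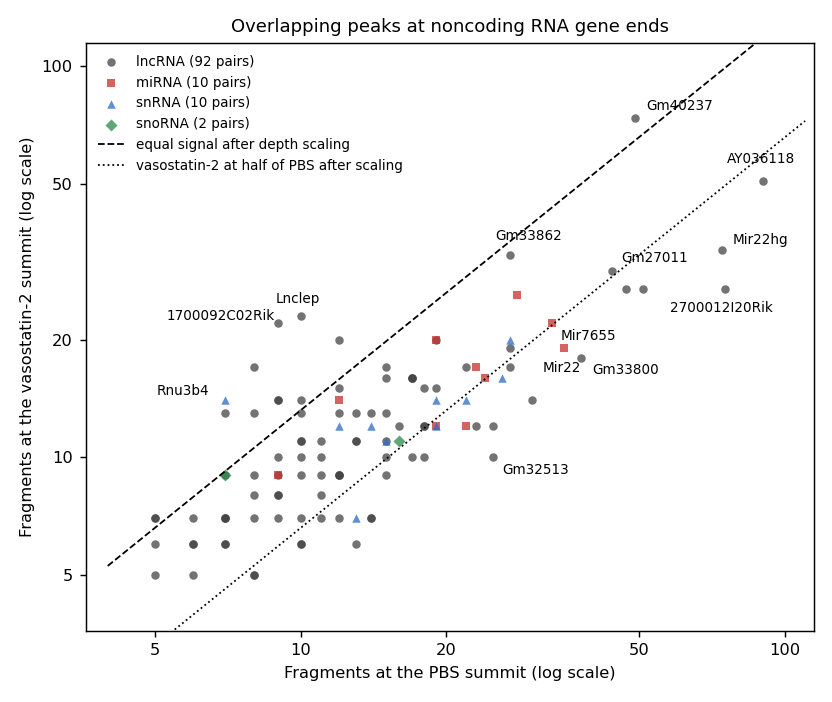
Fragments at the summit in the PBS library (horizontal) and in the vasostatin-2 library (vertical), both on log scales, for the 114 overlapping pairs at noncoding RNA gene ends, by RNA class. The dashed line marks equal signal after scaling by the relative depth of 1.32 and the dotted line a log2 ratio of -1; Mir22hg (74 and 34) and 2700012I20Rik (75 and 27) lie under the dotted line, and Lnclep (10 and 23) and 1700092C02Rik (9 and 22) above the dashed one.

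Of the 5 lowest ratios among pairs of at least 30 fragments in all, 3 had both summits within 222 bp of a lncRNA start. Gm32513 had both within 1 kb. Where a start was annotated, 140 of 183 PBS lncRNA peaks (76.5%) and 129 of 202 vasostatin-2 ones (63.9%) had the summit within 1 kb. At 2700012I20Rik, inside the corepressor gene Sin3a, the summits held 75 fragments with PBS and 27 with vasostatin-2 (log2 ratio -1.87), 82 bp after and 46 bp before the annotated start of the lncRNA. Mir22hg, the host transcript of miR-22, held 74 and 34 fragments (-1.52) with summits 205 and 167 bp before its start. 1700113A16Rik, nearest to Mef2d, a transcription factor gene of muscle, held 30 and 14 (-1.50) with summits 98 and 222 bp before its start. In all 3 the PBS peak covered the whole 300-base promoter printed above. Gm32513, a predicted lncRNA, held 25 and 10 (-1.72), 290 and 634 bases after its start. Gm33800 held 38 and 18 (-1.48), 606 and 609 bp from the end opposite its start. All 5 pairs had at least 10 fragments in both libraries. That their log2 ratios were under -1 follows from the choice of the lowest, as 17 of the 42 pairs were.

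Of the 5 highest ratios among pairs of at least 30 fragments in all, every one at a lncRNA gene, Gm40237 was the 1 with summits known to lie within 1 kb of the gene's start. Both sets of 5 were chosen by ratio, and no link between ratio and distance to the start was tested. 1700092C02Rik had 9 fragments with PBS and 22 with vasostatin-2 (log2 ratio 0.89). Lnclep, a lncRNA gene in the neighbourhood of the leptin gene Lep, had 10 and 23 (0.80), with folds of 7.64 and 13.7. The summits lay 98 and 105 bp from an end of it and 29365 and 29372 bp from Lep. Gm52388, inside the ion channel gene Trpm3, had 12 and 20 (0.34). Gm33862, inside Sfi1, had 27 and 33 (-0.11), with 12 and 11 other peaks within 50 kb and folds of only 2.56 and 3.01. The local background at its summits was 9.93 and 10.3 fragments, and regions of repeated sequence were not masked here; their part in this value was not tested.

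Gm40237, a predicted lncRNA gene on chromosome 4 near Tmem125, was the site of the vasostatin-2 peak with the most fragments among those at noncoding ends. It held 49 fragments with PBS and 74 with vasostatin-2 (log2 ratio 0.20), at 12.5-fold and 13.3-fold enrichment, in peaks of 992 and 854 bp (chr4:118547713-118548704 and chr4:118547845-118548698). Both summits were inside the gene, 523 and 543 bases after its start. Its promoter, printed above, held TAGGTCA 4 times, with AGGTCA beginning at -135, -47, -3 and 41 from the start at 0. Of 32851 promoters in the table it was the 1 with 4 copies of TAGGTCA on either strand, and 3 promoters had at least 3. The shorter AGGTCA occurred at least 4 times in 5 promoters and at least 3 times in 60. The copies lie in a tandem repeat: the window shifted by 88 bases was identical to itself at 97.6% of positions, against 32.7% to 40.1% at the best shift in the other promoters examined this way. None of its bases was under a peak, since the PBS peak began 258 bp and the vasostatin-2 peak 390 bp beyond it. Whether the repeat continues under the peaks was not tested, as no genome sequence was used here.

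Within the 300-base window, AGGTCA was not more frequent in lncRNA promoters with a summit within 1 kb of the start than in all lncRNA promoters. Searched on both strands (AGGTCA or TGACCT) it occurred in 17 of 140 promoters with a PBS summit within 1 kb of the start (12.1%, 7.72 to 18.6) and in 19 of 129 with a vasostatin-2 summit (14.7%, 9.64 to 21.9), where 19.1% of all 11588 lncRNA promoters hold it. The longer TAGGTCA, which contains the shorter, occurred in 7 (5.0%) and 6 (4.65%), against 3.12% of lncRNA promoters. Only 33 of the 140 PBS summits and 23 of the 129 vasostatin-2 summits lay inside the window. Sequence at the other summits was not searched, so these shares do not say how often the peaks hold AGGTCA. The promoters also differed in composition, with a median of 12 (PBS) and 6 (vasostatin-2) CpG pairs against 4 for all lncRNA promoters. In 1700096K18Rik, printed above, 1 copy begins at -152. The peaks there had 14 fragments with PBS and 13 with vasostatin-2, at 7.58-fold and 9.05-fold, and covered 300 and 268 bases of the window. A match describes the letters of this window and not a site of binding.

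Peaks found in the PBS list alone sat more often at lncRNA starts than those found with vasostatin-2 alone. Among lncRNA peaks with an annotated start, 83 of 107 PBS-only peaks (77.6%, 68.8 to 84.4) had the summit within 1 kb of the start, and 75 of 129 vasostatin-2-only peaks (58.1%, 49.5 to 66.3), and these intervals do not overlap. Overlapping peaks gave 57 of 76 and 54 of 73. Unlike the CpG counts that follow, these shares were not split by fragments or by curated transcript. The promoters concerned held a median of 12 CpG pairs for PBS-only peaks and 5 for vasostatin-2-only peaks, where the median of all lncRNA promoters was 4 and that of protein-coding promoters 13. More than 4 CpG pairs were held by 55 of 83 (66.3%, 55.6 to 75.5) and 40 of 75 (53.3%, 42.2 to 64.2), intervals that overlap. With at least 8 fragments these were 29 of 34 (85.3%, 69.9 to 93.6) and 11 of 24 (45.8%, 27.9 to 64.9), and with at most 8 fragments 29 of 52 (55.8%, 42.3 to 68.4) and 32 of 56 (57.1%, 44.1 to 69.2). When both lists were first reduced to peaks of at least 8 fragments, the shares among those left in 1 list were 79.5% (65.5 to 88.9) and 50% (32.1 to 67.9), and the intervals overlapped. Among genes with a curated transcript they were 27 of 34 (79.4%) and 16 of 20 (80.0%), so the gap seen with at least 8 fragments was not seen there or with at most 8.

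**Figure D5:**
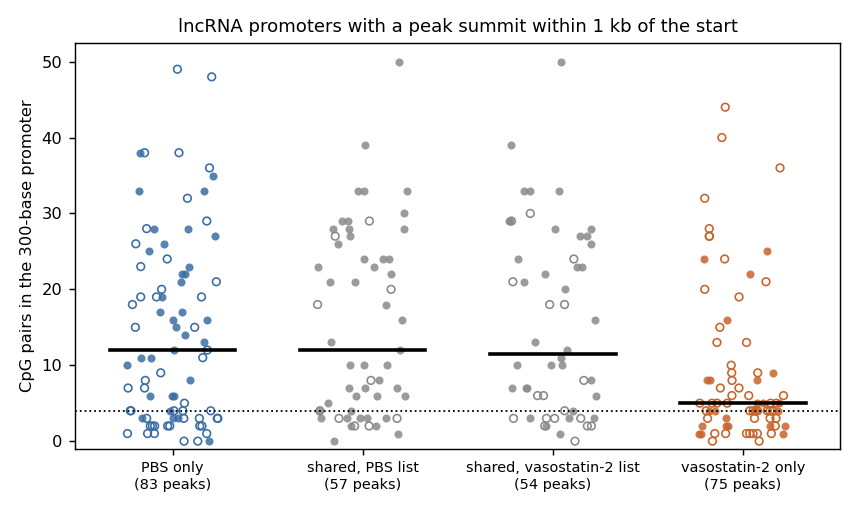
CpG pairs in the 300-base promoter of lncRNA genes with a summit within 1 kb of the start, 1 point per peak, filled where the summit had at least 8 fragments and open where it had fewer; black bars are medians and the dotted line the median of all lncRNA promoters. The medians are 12 for PBS-only and 5 for vasostatin-2-only peaks, against 4 for all lncRNA promoters.

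Vasostatin-2-only peaks at noncoding ends had a lower share inside protein-coding genes than PBS-only ones. Of PBS-only peaks 42.3% (34.8 to 50.2) had the summit inside a protein-coding gene, and of vasostatin-2-only peaks 24.3% (18.8 to 30.9). The whole lists differed in the same direction, by less: 52.5% of all 4749 PBS-only peaks and 46.6% of all 6167 vasostatin-2-only peaks lay inside such a gene. Of peaks with no protein-coding end within 1 kb these were 49.8% (48.1 to 51.5) and 44.7% (43.4 to 46.0). The nearest noncoding gene had a curated transcript, as opposed to a predicted one, for 35.3% (28.2 to 43.0) and 24.3% (18.8 to 30.9), where the intervals overlap. Among overlapping peaks these shares were 44.6% and 47.3% in the PBS list. Protein-coding ends were a median of 17356 bp away from PBS-only summits, compared with 22108 bp from vasostatin-2-only summits.

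The lncRNA peaks of highest fold were shared by both lists. Gm27011, inside Banp, which encodes a nuclear matrix-associated protein, had 44 fragments with PBS and 30 with vasostatin-2, at 15.3-fold and 12.9-fold, and its promoter held 50 CpG pairs. Gm46360 had 27 and 17 at 13.8-fold and 8.98-fold. Of the PBS-only peaks the highest fold was at 4930500L23Rik near the homeobox gene Uncx (14 fragments, 9.22-fold). Crnde, a lncRNA beside the homeobox gene Irx5 and known from colorectal tumours, had 13 fragments at 8.12-fold, 29 bp after its start. Gm52502 (15 fragments), Gm36909 (12) and Gm33560 (13) completed the 5 PBS-only peaks of highest fold. Of the vasostatin-2-only peaks the highest was at Gm11651 near Ace, which encodes angiotensin-converting enzyme (17 fragments, 9.64-fold), 2661 bp from an end of Ace. LOC115487747 (17 fragments), A130051J06Rik inside Ano6 (14), 4632404H12Rik near Chrnb2 (12) and Gm52025 (13) came next. A gene named here marks the site, and its transcript was not measured.

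Among the miRNA genes the loci of miR-22 and miR-199a had peaks in both lists. At Mir22 the summits held 35 and 19 fragments, 730 and 704 bp from the miRNA itself, in addition to the peak at the start of Mir22hg. Mir199a-1 held 12 and 14 fragments at 300 and 278 bp. Mir7655, inside Mllt10, had the highest fold of the class, 13.6 with PBS and 14.0 with vasostatin-2, on 33 and 22 fragments. Mir6976 lies inside Srf, the gene of serum response factor, which drives contractile smooth muscle genes, and held 22 and 12 fragments (log2 ratio -1.27). Mir7671, with the interferon regulatory factor gene Irf1 as the nearest protein-coding gene, held 23 and 17, Mir7653 24 and 16, Mir7240 19 and 12, Mir1941 19 and 20 and Mir3075 9 and 9. For Mir7240 the overlapping vasostatin-2 summit did not itself meet the rule. Mir101c held 28 and 26, and within 50 kb of it lay 10 other peaks in each list, the largest with 1233 and 1170 fragments; their part in this value was not tested.

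3 miRNA sites had a peak with PBS alone. Mir210 had 16 fragments at 7.11-fold, 492 bp away. Mir212 had 13 fragments at 3.62-fold, 271 bp away, and Mir132 lay 565 bp from the same summit. Mir101a had 4 fragments, 20 bp away. 5 miRNA sites had a peak with vasostatin-2 alone, on 5 to 7 fragments. They were Mir344i (7), Mir1981 (7), Mir370 (6), Mir138-1 (6) and Mir6244 (5). None of the 5 reached the median of 8 fragments of its list.

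A larger share of the named snRNA genes, those with a Rnu symbol, had a peak than of the predicted ones. Of these 15 genes 8 had such a peak with PBS (53.3%, 30.1 to 75.2) and 6 with vasostatin-2. Of 986 predicted snRNA genes 12 (1.22%, 0.70 to 2.12) and 8 had one. Rnu1a1, a gene of U1, which recognises the 5′ splice site, held 19 and 12 fragments. Rnu2-10, a U2 gene, held 12 and 12, and Rnu5g, a U5 gene, 22 and 14. Rnu11, of the minor spliceosome, held 13 and 7. The table files U3, which acts in ribosomal RNA processing, as snRNA: Rnu3a held 26 and 17, with another vasostatin-2 peak of 16 fragments 985 bp from the gene. The pair counted in the ratios above was that of 26 and 16 fragments (log2 ratio -1.10). Rnu3b4 held 7 and 14, the 1 snRNA pair with a ratio above 0 (log2 0.60). Its neighbours in the cluster near Tex14 on chromosome 11, Rnu3b1 and Rnu3b2, had a PBS-only peak within 1 kb, with 8 and 14 fragments. The first lay 179 bp from Rnu3b1 and was assigned to LOC115487798 as the nearest noncoding gene. These Rnu3b copies are near-identical, and how the authors placed reads that match several copies is not given in the sources used here.

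Predicted snRNA genes accounted for the highest fold of the class. Gm29163 had 27 and 20 fragments at 15.7-fold and 11.8-fold, inside Bckdhb and 938 and 895 bp from the snRNA. LOC115487699 held 19 and 14, Gm25099 14 and 12 and Gm22513 15 and 11. For LOC115487699 the overlapping vasostatin-2 summit did not itself meet the rule. PBS-only peaks lay at Gm25558 (12 fragments), Gm25897 (11), Gm23805 (7) and LOC115488100 (6). Vasostatin-2-only peaks lay at Gm25721 (10), Gm26328 (8), Gm22822 (7), Gm26091 (4) and Gm22997 (4).

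The snoRNA genes had few peaks and the tRNA genes had them at different sites. LOC115487060 held 7 fragments with PBS and 9 with vasostatin-2, which says nothing of the direction of the class. PBS-only peaks were at Gm22554 (6 fragments), Gm23439 (6), Gm24257 (5) and Gm23530 (4). Vasostatin-2-only peaks were at Gm25210 (11), Gm25157 (8) and LOC115489623 (4), the first 2 on chromosome 7 with Snrpn as the nearest protein-coding gene. The tRNA peaks of the PBS list were at n-TQttg6 (13 fragments), n-TRcct1 (11), n-TGgcc4 (10), n-TIaat6 (8) and n-TRtct1 (7). Those of the vasostatin-2 list were at n-TYgta1 (8), n-TQttg6 (8), n-TKctt26 (7) and n-TGtcc3 (6). Both lists had a peak at the glutamine tRNA gene n-TQttg6, 159 and 578 bp away, and these did not overlap. All 9 tRNA peaks stood on 13 fragments or fewer. Counting tRNA genes anywhere within 1 kb of these 565 summits, also where another gene was nearer, gave 9 with PBS and 14 with vasostatin-2, 1 of them in both.

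Some noncoding RNAs on lists for smooth muscle and the clock had a peak that met the rule. Of 28 vascular smooth muscle RNAs 2 had one with PBS (Mir22 and Mir210) and 2 with vasostatin-2 (Mir22 and Carmn, 8 fragments, 733 bp away). Malat1, Neat1, H19, Meg3, Mir143, Mir145a and Mir21a had none: the nearest summit was 1489 and 7334 bp from Malat1, 15310 and 8751 bp from Neat1, and 3128 and 3215 bp from Mir21a. For H19 it was 104312 and 19577 bp, for Meg3 123063 and 47502 bp, for Mir143 123689 and 17013 bp and for Mir145a 125053 and 18377 bp. Of 18 snoRNA host genes 4 had a peak with PBS and 2 with vasostatin-2. Snhg9 held 12 and 9 fragments, the vasostatin-2 summit lying nearest to its snoRNA Snora78. Snhg16 (11), Snhg17 (7) and Snhg5 (5) had a PBS-only peak and Snhg20 (8) a vasostatin-2-only one. Of 17 miRNA hosts Mir22hg had peaks in both lists and Carmn with vasostatin-2. Of 22 structural and nuclear RNAs 8 and 6 had a peak, all of them Rnu genes. Of 5 clock-linked miRNAs 2 (Mir132 and Mir212, at 1 peak) and 0 did, and of 8 imprinted RNAs 0 and 0. The background for these counts is 283 (1.69%) and 314 (1.88%) of 16707 noncoding genes. Each list count above 0 was a larger share of its list than this share of all noncoding genes. Curated genes had other shares: 2.71% and 2.41% for lncRNA, 44.4% and 33.3% for snRNA and 2.38% and 0.79% for snoRNA genes. The 8 and 6 of 22 structural and nuclear RNAs were a smaller share than those of curated snRNA genes. The lists are short and were chosen with earlier results of these data known, so no comparison with the background was tested.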

How the data were processed

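CUT&Tag peak lists of NR1D1 from PBS and vasostatin-2 cells, 1 library each, were used. Per the submitters' processing notes, which give no roles or settings, MACS2 2.2.7.1, BWA 0.7.17 and Trimmomatic 0.39 were used, with mm10 as the build. Headers are absent, and the order of the 10 columns is the one this caller writes. The deposited fold enrichment is the authors' ratio of the summit to its local background. The deposited -log10 p and -log10 q are the authors' values for the summit, with a smallest -log10 q of 1.32 (PBS) and 1.31 (vasostatin-2). The deposited score equals 10 times the -log10 q, rounded down, and was not used. Coordinates and summits are the authors', written here from 1.

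The whole number of fragments at a summit was the one for which the Poisson formula of the peak caller returned the deposited -log10 p (tolerance 0.0005) at the deposited fold. A solution was found for 100% of peaks, ambiguous for 4 PBS peaks, and the step was tested on simulated data. Total depth was not stated. From the lowest background, 0.310 and 0.381 fragments, and the step of the background over an assumed window of 10000 bp, the vasostatin-2 library was 1.32 times as deep as the PBS library. Overlaps were made with bedtools 2.31.1, and tables with Python 3.11.15 and pandas 2.3.3. Starts and strands of lncRNA genes came from the RefSeq promoter table. A transcript with an NR accession was called curated.

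Named genes were, in each class, the 5 peaks of highest fold in both lists and in either list alone, the 5 lowest and 5 highest ratios among pairs of at least 30 fragments, all peaks of a class with 10 or fewer, every gene of 6 fixed lists with a peak, and 7 genes in any case. Gm22513, Mir101c, Mir1941, Mir199a-1, Mir3075 1700096K18Rik, and those named only under other observations, were named after their values were seen. One snoRNA pair chosen by fold is not reported here. The members and lists were chosen with earlier results of these data known.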

Additional observations from a re-analysis of the deposited data

How the results depend on the processing

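Of 73 values recomputed under other settings 47 stayed within the interval of the reported value and 26 moved outside it. Only the log2 ratio can change sign, as the other values are percentages, and it did so in 0 cases. Peaks at noncoding ends had at most 90 fragments. Leaving out peaks of 100 or more fragments therefore removed none of them and changed only the share of peaks at noncoding ends. Counting summits from 0 and the CpG settings were chosen after seeing the data. The share of peaks at noncoding gene ends, PBS then vasostatin-2, was 2.25% and 1.86% with a window of 500 bp, 6.02% and 5.75% with 2 kb, and 2.89% and 2.90% with protein-coding ends kept 3 kb away. It was 4.23% and 4.05% with q under 1e-05, 1.50% and 1.15% for curated genes, and 3.96% in vasostatin-2 with at least 8 fragments. The share found in the other list was 51.9% and 51.3% with at least 8 fragments, 48.6% and 53.5% for curated genes, 30.6% and 26.9% when 50% of both peaks had to overlap, 34.0% and 30.6% with summits within 200 bp, and 47.9% in vasostatin-2 with q under 1e-05. The lncRNA part was 78.4% in PBS with q under 1e-05 and 78.2% in vasostatin-2 for curated genes. The median log2 ratio over all overlapping pairs was -0.63. A narrower window or a stricter rule keeps fewer peaks by construction, and apart from this the cause was not tested. No paired analysis was possible because each treatment has 1 NR1D1 library, and for the same reason no replicate could be left out. The few fragments per summit limit every count of peaks in 1 list.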

Other observations

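Several well-known noncoding RNAs had a summit at an end but were outside the rule because a protein-coding gene begins or ends beside them. Gas5, a snoRNA host gene that is induced by growth arrest, had a summit of 22 fragments with PBS and one of 11 with vasostatin-2, 105 and 296 bp from an end of Zbtb37. Tug1, a lncRNA widely expressed in vascular cells, had a PBS summit of 6 fragments, 19 bp from an end of Morc2a. Rnu12, of the minor spliceosome, had 14 and 9 fragments, with Poldip3 589 and 733 bp away. Snhg10 had a PBS summit of 7 fragments, 294 bp from an end of Glrx5. AY036118 had the PBS summit with the most fragments of all peaks at noncoding ends, 90 against 51 with vasostatin-2, at a fold of only 3.23 and 2.89, and 1 other peak within 50 kb held 142 and 85.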
